A study of Mus musculus with 6 samples.

Results

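A set of 10 genes of iron handling was followed in granulocyte-monocyte progenitors, the bone marrow cells that give rise to neutrophils and monocytes. They are Tfrc, Steap3, Slc11a2, Fth1, Ftl1, Ncoa4, Slc40a1, Aco1, Ireb2 and Hmox1, 10 of the 24205 genes in the deposited table, and each name has 1 row there. The cells were sorted from the marrow of C57BL/6 mice with hindlimb ischemia, a model of blocked blood flow to the leg (3 libraries), or from sham-operated mice (3 libraries). The labels state no other treatment or allele for either group, and give neither age, sex nor time after the operation. Nothing in the labels says that each library came from a separate animal, so errors and p-values measure the spread between these samples only. The 10 genes were chosen by their function around Tfrc, and Tfrc was selected on its measured difference in expression between hindlimb ischemia and sham in these libraries. Their values in that comparison are therefore a description, and no test was made of them here. The adjusted p quoted for them from the authors' deposited table belong to the same comparison and are not independent support.

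Cells take up iron when transferrin, its carrier in plasma, binds the transferrin receptor and is internalised. Iron is freed in the endosome, stored in ferritin or used for heme and iron-sulfur clusters, and leaves the cell through ferroportin. A pair of RNA-binding proteins, IRP1 and IRP2, binds hairpins called iron responsive elements when iron is scarce. Binding in the 3′ untranslated region (UTR) of the transferrin receptor mRNA protects that mRNA from decay, whereas binding in the 5′ UTR of ferritin and ferroportin mRNAs blocks their translation. Blocked translation need not change the amount of mRNA, which is what was measured here.

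The hairpins are shown because they separate the genes whose mRNA level the regulators act on from those whose translation they act on. UTRs of protein-coding transcripts (GENCODE M21, GRCm38) were searched on the sense strand for a C, any 5 bases, CAGTG, any base and 5 more bases, where the 5 bases on either side of the 6-base loop CAGTGN could pair in all 5 positions (A with T, G with C or G with T). In the lines that follow the unpaired C and the 6-base loop are in capitals.
Tfrc 3′ UTR chr16:32631219-32631247: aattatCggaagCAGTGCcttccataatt
Tfrc 3′ UTR chr16:32631598-32631626: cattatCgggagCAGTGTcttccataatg
Tfrc 3′ UTR chr16:32631663-32631691: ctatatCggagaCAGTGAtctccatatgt
Tfrc 3′ UTR chr16:32631710-32631738: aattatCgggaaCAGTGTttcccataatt
Fth1 5′ UTR chr19:9982732-9982760: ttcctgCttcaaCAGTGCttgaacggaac
Ftl1 5′ UTR chr7:45459779-45459807: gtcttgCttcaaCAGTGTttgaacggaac
Slc40a1 5′ UTR chr1:45925465-45925493: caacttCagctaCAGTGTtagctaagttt
Slc11a2 3′ UTR chr15:100395153-100395181: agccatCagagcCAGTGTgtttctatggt

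Tfrc and Fth1 lie on the plus strand, and Ftl1, Slc40a1 and Slc11a2 on the minus strand. The 4 matches in Tfrc start between bases 889 and 1380 of a 3′ UTR of 2458 bases. Among all protein-coding genes, 0.679% had a match in a 3′ UTR and 0.145% in a 5′ UTR. Tfrc held more matches in 1 UTR than any other gene searched, and only Egfl7 also held more than 1, with 2. The Slc11a2 site pairs in 4 of its 5 positions, a looser form that 4.74% of genes hold in a 3′ UTR. Aco1, Ireb2, Steap3, Hmox1 and Ncoa4 held no match in either form. A match is a description of the letters, and binding was not measured.

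Levels are in TPM, a unit corrected both for library total and for gene length, so that genes can be compared with each other. Reads recovered from the TPM values ran from 32754783 to 41623742 over the hindlimb ischemia libraries and from 32547279 to 37129695 over the sham libraries. A filter of 1 TPM in 3 or more libraries left 13787 genes to test, and all 10 iron genes passed it. The marker genes of the sorted population were abundant: 10 of 10 were measured, and their summed level was 24550 to 30200 TPM after hindlimb ischemia and 25340 to 30490 TPM in sham. Across genes, libraries correlated with r of 0.978 to 0.992 within hindlimb ischemia and 0.985 to 0.993 within sham. With limma-trend on log2(TPM + 1), 0 of 13787 genes (0.0%) passed an adjusted p of 0.05, and 537 (3.89%) had an unadjusted p under 0.05. The count past the adjusted threshold was also 0 with limma-voom on recovered reads, and 33 without hindlimb ischemia replicate 1. Over all these genes the log2 fold change had a median of -0.09.

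Ferritin mRNAs were by far the most abundant of the 10. Averaged over the 6 libraries, Ftl1 stood at 1747 TPM and Fth1 at 1268 TPM, followed by Ncoa4 at 178 TPM and Tfrc at 68.5 TPM. These first 4 places did not overlap between neighbours in any library. Aco1 (18.8 TPM) and Ireb2 (16.2 TPM) overlapped in range, although Aco1 was above Ireb2 in 6 of 6 libraries. Slc40a1 (10.8 TPM) overlapped in range with Slc11a2 (8.38 TPM), and Slc11a2 with Steap3 (7.45 TPM). Hmox1 was lowest at 3.64 TPM, below the range of Steap3. The ferritin genes made up 90.2, 90.6 and 90.4% of the summed TPM of the 10 genes in hindlimb ischemia libraries 1 to 3, and 89.1, 91.9 and 91.4% in sham libraries 1 to 3.

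**Figure D1:**
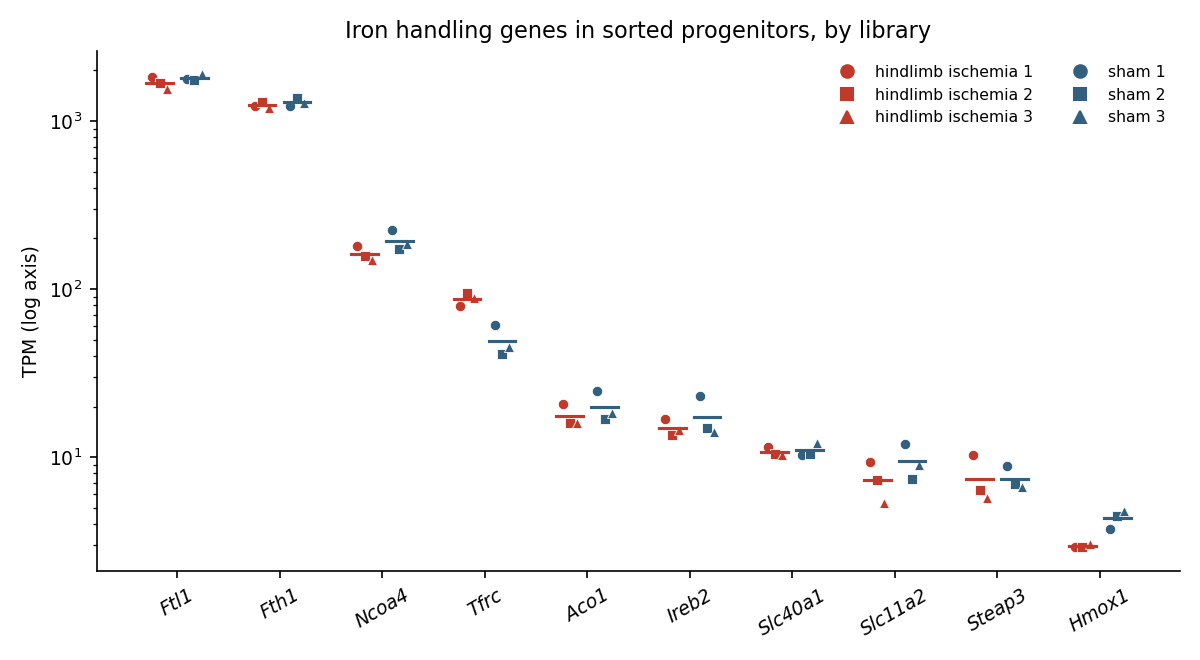
TPM of the 10 iron handling genes on a log axis, ordered by mean level. Each point is 1 library, hindlimb ischemia in red and sham in blue, the shapes mark replicates 1 to 3, and bars are group means. The Tfrc libraries separate upward after hindlimb ischemia, and those of Hmox1 separate downward.

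Tfrc (ENSMUSG00000022797, GRCm38 chromosome 16, 32608920 to 32632794) encodes transferrin receptor 1, the route by which most cells import transferrin-bound iron. It had 79.3, 95.0 and 88.8 TPM in the 3 hindlimb ischemia libraries, against 61.3, 41.1 and 45.3 TPM in the 3 sham libraries. Every hindlimb ischemia library was above every sham library, and the closest values were hindlimb ischemia 1 and sham 1. The means were 87.7 ± 7.89 TPM after hindlimb ischemia and 49.2 ± 10.7 TPM in sham (SD, n = 3 each), a ratio of 1.78. On the log2(TPM + 1) scale the difference was 0.84 (SE 0.17), and it ran from 0.72 to 1.00 as each library was left out in turn. These values rest on 8349, 11864 and 13604 reads after hindlimb ischemia and on 6414, 4668 and 5742 reads in sham. Of the 13787 genes tested, 20 had a larger positive log2 fold change (0.145%). In the authors' deposited table Tfrc had the smallest adjusted p of 15747 genes, 7.02e-06, and a log2 fold change of -0.75, which is coded as sham over hindlimb ischemia. The test behind that value is not given in the sources used here, and 0.0762% of its genes passed an adjusted p of 0.05. For the other 9 iron genes the lowest adjusted p in the authors' deposited table was 0.929.

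Steap3 and Slc11a2 act after Tfrc in the endosome. Steap3, a ferrireductase that reduces the iron released from transferrin, had 10.3, 6.35 and 5.71 TPM after hindlimb ischemia, against 8.81, 6.93 and 6.62 TPM in sham. The groups overlapped and their means were level, 7.45 ± 2.48 TPM after hindlimb ischemia and 7.45 ± 1.18 TPM in sham (SD, n = 3 each), with library 1 highest in each group. Slc11a2, also called DMT1, moves the reduced iron into the cytosol. It had 9.35, 7.32 and 5.32 TPM after hindlimb ischemia, against 11.9, 7.41 and 8.92 TPM in sham, so the ranges overlapped. Its log2 fold change was -0.33 (SE 0.22). Steap3 differed in sign between alternatives, with log2 fold changes of -0.26 to 0.18, whereas that of Slc11a2 was negative in each.

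Ferritin stores iron in a shell built of heavy chains, encoded by Fth1, which oxidise iron, and light chains, encoded by Ftl1. Fth1 (chromosome 19, 9980598 to 9985098) had 1234, 1300 and 1198 TPM after hindlimb ischemia, against 1229, 1372 and 1273 TPM in sham. Ftl1 (chromosome 7, 45457944 to 45459884) had 1815, 1687 and 1557 TPM after hindlimb ischemia, against 1783, 1748 and 1891 TPM in sham. For each chain the groups overlapped. The log2 fold changes of -0.05 (SE 0.12) for Fth1 and -0.10 (SE 0.12) for Ftl1 lay beside the median of all genes, and size factors turned them to positive values. Reads of Ftl1 may be shared with the processed pseudogene Ftl2 on chromosome 4, which the table lists at 1220 TPM after hindlimb ischemia and 1294 TPM in sham, so the Ftl1 level is uncertain. The pseudogene Fth-ps2 was listed at 3.08 TPM after hindlimb ischemia and 3.04 TPM in sham.

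The summed ferritin TPM was 31.0 to 38.4 times the Tfrc TPM in the hindlimb ischemia libraries and 49.1 to 75.9 times in the sham libraries. These ranges did not overlap, but Tfrc is the divisor and was chosen for its difference. The separation therefore restates that choice and is no further result. The ferritin sum itself was 2755 to 3049 TPM after hindlimb ischemia and 3013 to 3164 TPM in sham. Ncoa4 (chromosome 14, 32159865 to 32179855) encodes the receptor that delivers ferritin to lysosomes for iron release. It had 180, 158 and 150 TPM after hindlimb ischemia, against 223, 172 and 186 TPM in sham. The ranges overlapped, through hindlimb ischemia 1 and sham 2, and the log2 fold change was -0.25 (SE 0.14).

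Slc40a1 encodes ferroportin, the exporter of iron. It had 11.4, 10.4 and 10.3 TPM after hindlimb ischemia, against 10.3, 10.5 and 12.1 TPM in sham. The groups overlapped, with a log2 fold change of -0.03 (SE 0.15). The Tfrc to Slc40a1 ratio, which carries the Tfrc difference, was 6.94, 9.13 and 8.64 after hindlimb ischemia and 5.95, 3.92 and 3.74 in sham. Hmox1 (chromosome 8, 75093621 to 75100589) encodes heme oxygenase 1, which breaks heme down and frees its iron. It had 2.91, 2.91 and 3.03 TPM after hindlimb ischemia, against 3.75, 4.43 and 4.81 TPM in sham. Every hindlimb ischemia library lay below every sham library, and the log2 fold change was -0.43 (SE 0.16). Hmox1 was also the gene with the fewest recovered reads of the 10, from 107 to 213 per library as a lower bound, because its reads are known only up to a common factor.

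The RNA-binding regulators overlapped between the groups. Aco1 encodes IRP1, which is cytosolic aconitase when it carries an iron-sulfur cluster and binds RNA when it does not. It had 20.7, 16.0 and 16.0 TPM after hindlimb ischemia, against 24.7, 16.8 and 18.2 TPM in sham. Ireb2 encodes IRP2, which is degraded when iron is plentiful, and had 16.8, 13.6 and 14.6 TPM after hindlimb ischemia, against 23.0, 14.8 and 14.1 TPM in sham. For both genes library 1 was highest in each group. The log2 fold changes were -0.16 (SE 0.19) for Aco1 and -0.17 (SE 0.20) for Ireb2. Their activities depend on iron and protein turnover, which these data do not measure.

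Of the 10 genes, 1 was higher and 1 lower after hindlimb ischemia with groups that did not overlap. Over all genes tested the groups did not overlap for 8.33%, for 1.65% upward and for 6.68% downward. The mean was higher after hindlimb ischemia for 1 of the 10 genes and lower for 9, and the log2 fold change was positive for 30.9% and negative for 69.1% of all genes. The median of the 10 was -0.13, against -0.09 for all genes. Since this comparison chose the genes, nothing is read from these counts. The sign was the same for Tfrc, Hmox1, Ncoa4 and Slc11a2 under every alternative that held the gene. Hmox1, with a mean of 3.64 TPM, was absent from the alternative with a mean of at least 5 TPM. The sign turned under at least 1 alternative for Fth1, Ftl1, Slc40a1, Aco1, Ireb2 and Steap3.

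**Figure D2:**
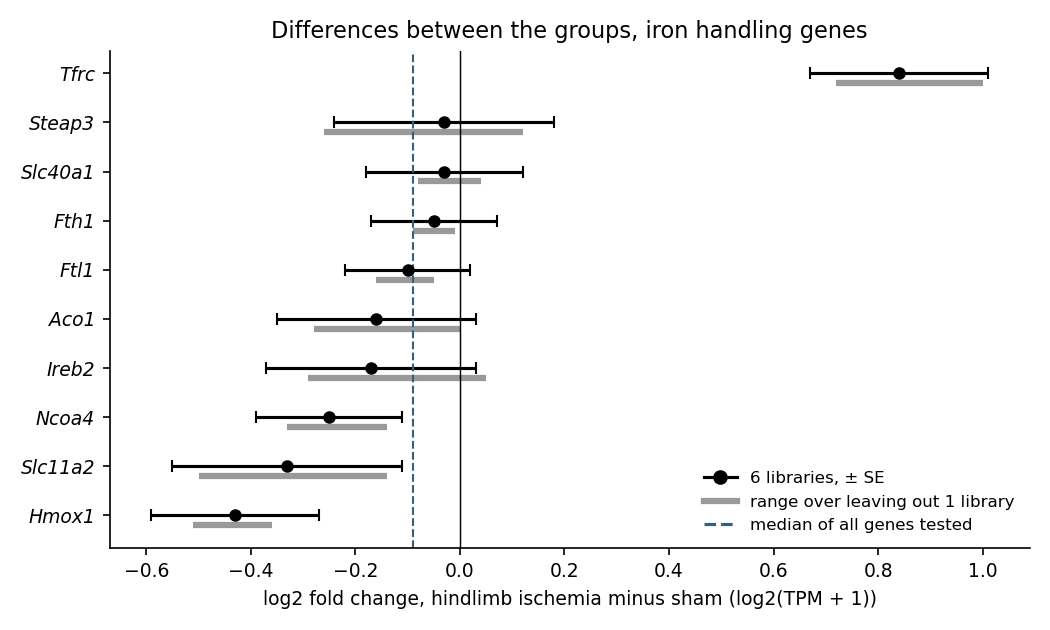
Log2 fold change, hindlimb ischemia minus sham, on the log2(TPM + 1) scale for the 10 genes, with its standard error (black) and its range as each library is left out (grey). Tfrc stands at 0.84, Hmox1 is lowest at -0.43, and the dashed line marks the median of all genes tested, -0.09.

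Within the groups, several of the genes varied together from library to library. Ncoa4, Aco1, Ireb2, Slc11a2 and Steap3 were each highest in hindlimb ischemia 1 and in sham 1 of their groups. Steap3 was 0.46 above its group mean in hindlimb ischemia 1, on the log2(TPM + 1) scale, and Ireb2 was 0.42 above in sham 1. Tfrc differed from them in the ischemia group: it was lowest in hindlimb ischemia 1 (0.14 below its group mean) and highest in sham 1 (0.33 above). The median of all genes, relative to each gene's mean over the 6 libraries, stood at 0.07, -0.05 and -0.16 in hindlimb ischemia 1 to 3 and was highest in sham 1, at 0.20. Its part in the values of the 10 genes was not tested. After division by size factors the log2 fold change of Tfrc was 0.95 and that of Hmox1 stayed negative.

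**Figure D3:**
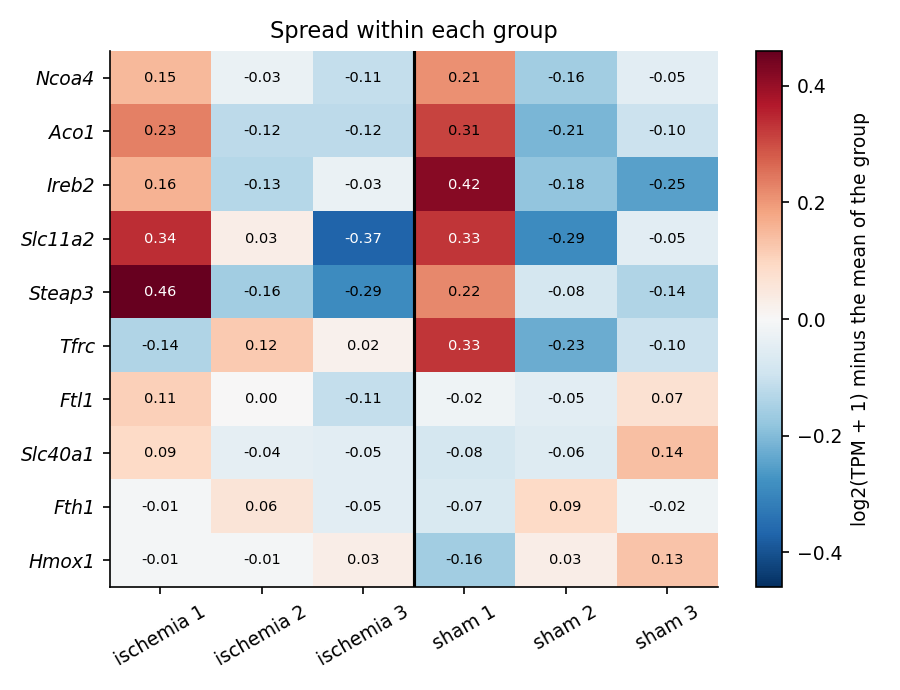
Deviation of each gene from the mean of its own group, in log2(TPM + 1), by library, with hindlimb ischemia left of the line and sham right of it. The upper 5 genes are highest in library 1 of each group, whereas Tfrc is lowest in hindlimb ischemia 1 (-0.14) and highest in sham 1 (0.33).

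Erythroid precursors carry large amounts of transferrin receptor, so erythroid markers were read beside Tfrc. All 12 of 12 markers had a lower mean after hindlimb ischemia, and their summed level was 29.5, 89.1 and 71.8 TPM there, against 160, 183 and 149 TPM in sham. No erythroid marker was at 0 in every library. Every hindlimb ischemia library was below every sham library in these markers, while for Tfrc it was above. Within the ischemia group, library 1 was lowest both in erythroid markers and in Tfrc. In bulk samples, fewer cells of a type and less RNA per cell cannot be told apart. Erythroblastic island macrophages recycle heme iron and express Hmox1 and Slc40a1. The markers listed for them summed to 34.1, 26.4 and 28.3 TPM after hindlimb ischemia, against 33.1, 29.3 and 34.2 TPM in sham. Of these 10 markers 8 were lower in mean, and none was at 0 in every library. Vcam1, Adgre1 and Cd163 had the highest levels, while C1qc, Mrc1, Cd5l and Spic were below the filter. Spic was at most 0.206 TPM in any library. Whether such macrophages were present, and their part in the Hmox1 values, was not tested. The summed B lineage markers were 293 to 403 TPM after hindlimb ischemia and 446 to 520 TPM in sham (8 of 8 lower in mean). The megakaryocyte markers summed to 65.5 to 84.8 TPM after hindlimb ischemia and 65.0 to 82.8 TPM in sham (3 of 6 lower).

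**Figure D4:**
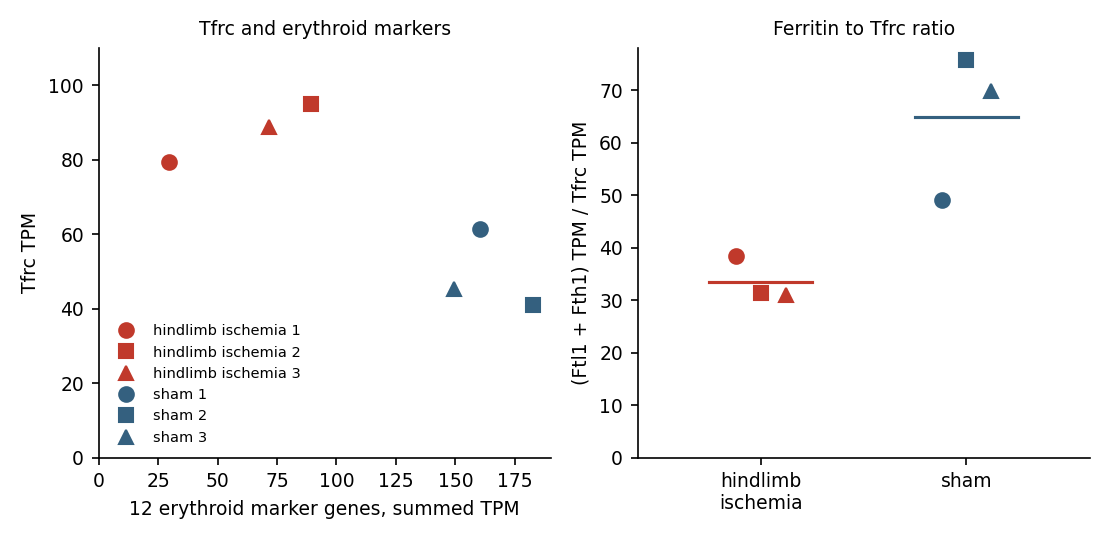
Left, Tfrc TPM against the summed TPM of 12 erythroid marker genes for each library. Right, the summed TPM of Ftl1 and Fth1 divided by the TPM of Tfrc, with bars at the group means. The hindlimb ischemia libraries have more Tfrc with less erythroid marker RNA, and ferritin to Tfrc ratios of 31.0 to 38.4 against 49.1 to 75.9 in sham. Tfrc was chosen for its difference, so the separation of the ratios restates that choice.

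The question whether other genes of iron and heme handling moved was asked of 120 further genes in 10 functional lists. Of these, 117 had a row in the table and 99 were tested. With limma-trend and Benjamini-Hochberg adjustment, 0 of the 99 passed an adjusted p of 0.05. At an unadjusted p under 0.05 there were 0 higher and 1 lower (1.01%), against 0.943% higher and 2.95% lower over all genes. Without hindlimb ischemia replicate 1 the count was 16 for these genes, while that over all genes was 2669 in place of 537. The groups did not overlap for 5 of the 99 (5.05%), a smaller share than the 8.33% over all genes. They were Isca2 upward and Pcbp3, Cpox, Blvrb and Gch1 downward, named after their values were seen. The mean was higher after hindlimb ischemia for 20 and lower for 79 (79.8%), where 69.1% of all genes had a negative log2 fold change. That 69.1% also stands beside the count of lower means in each list that follows. The median log2 fold change of the 99, -0.09, equalled that of all genes. With size factors this median was 0.02, and the medians of the uptake, storage, export, ferroptosis, mitochondrial and further iron responsive element lists turned positive (0.02 to 0.10). Size factors rescale all genes of a library together, and they also raised Tfrc from 0.84 to 0.95 and Fth1 from -0.05 to 0.06. These positive medians are therefore not read as a rise of the lists. The lowest adjusted p among them in the authors' deposited table was 0.284.

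Of the uptake and endosomal transport genes, 11 of 16 were tested, 1 with a higher mean and 10 with a lower one. Tfr2, the second transferrin receptor, had 13.2 ± 1.95 TPM after hindlimb ischemia and 15.3 ± 3.29 TPM in sham (SD, n = 3 each), a log2 fold change of -0.19 (SE 0.19). Hfe, the partner of both receptors, had 14.3 TPM after hindlimb ischemia and 14.7 TPM in sham. The named genes of this list were Mcoln1, a lysosomal ion channel that passes iron, at 16.3 TPM after hindlimb ischemia and 20.96 TPM in sham (limma unadjusted p = 0.0699, adjusted p = 0.874), and the transferrin gene Trf at 4.70 TPM after hindlimb ischemia and 5.62 TPM in sham. The ferrireductase genes Steap1, Steap2, Steap4 and Cybrd1 were below the filter, so that Steap3 was the only gene of its family tested.

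The storage, chaperone and IRP turnover list had 10 of 12 genes tested, 4 with a higher and 6 with a lower mean. Pcbp1, which delivers iron to ferritin, was abundant at 520 ± 23.8 TPM after hindlimb ischemia and 499 ± 25.6 TPM in sham (SD, n = 3 each). Fbxl5, the iron-sensing subunit of the ligase that marks IRP2 for degradation, had 8.82 TPM after hindlimb ischemia and 9.42 TPM in sham. The genes with the smallest p were Pcbp4 (1.12 TPM after hindlimb ischemia and 1.88 TPM in sham) and Pcbp3 (5.14 TPM after hindlimb ischemia and 6.38 TPM in sham). Of the export list 3 of 9 were tested, the heme carriers Slc48a1 (102 TPM after hindlimb ischemia and 119 TPM in sham), Abcg2 (10.7 TPM after hindlimb ischemia and 10.6 TPM in sham) and Flvcr1, listed under its older symbol Mfsd7b (19.8 TPM after hindlimb ischemia and 21.2 TPM in sham). The hormone gene Hamp and the ferroxidase genes Heph and Cp were below the filter.

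Heme synthesis genes had a lower mean throughout, 11 of 11 tested, where 69.1% of all genes had a negative log2 fold change. Their median was -0.15 on the log2 scale, against -0.09 for all genes. The median of the list was 0.01 after the GC content and length correction, and 0 of the 11 had an unadjusted p under 0.05 in the limma fit. Alas1, the first and rate-limiting enzyme in non-erythroid cells, had 289 ± 68.0 TPM after hindlimb ischemia and 292 ± 34.8 TPM in sham (SD, n = 3 each). The genes with the smallest p were Alad, the second enzyme of the pathway, at 34.3 TPM after hindlimb ischemia and 39.4 TPM in sham, and the mitochondrial transporter Abcb10 at 31.0 TPM after hindlimb ischemia and 37.9 TPM in sham. Alas2, the erythroid form, was below the filter at 0.169 TPM after hindlimb ischemia and 0.536 TPM in sham. BACH1 and NRF2 are transcription factors that control Hmox1. Among 14 genes of heme breakdown and of their response, 12 had a lower and 2 a higher mean. Hmox2, the constitutive heme oxygenase, had 38.0 TPM after hindlimb ischemia and 41.4 TPM in sham, and Bach1, the heme-sensing repressor of Hmox1, 3.43 TPM after hindlimb ischemia and 3.95 TPM in sham. Gclm, which is needed for glutathione synthesis, had 33.9 TPM after hindlimb ischemia and 28.7 TPM in sham, and the biliverdin reductase gene Blvrb 8.23 TPM after hindlimb ischemia and 9.99 TPM in sham.

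Genes of mitochondrial iron import and iron-sulfur cluster assembly were split, 10 higher and 12 lower of 22 tested, with a median of -0.01. The mitochondrial iron importer genes Slc25a37 and Slc25a28 had 9.78 and 25.5 TPM after hindlimb ischemia, against 9.68 and 26.3 TPM in sham. The smallest p in this list belonged to Abcb8, an inner membrane transporter, with 29.4 TPM after hindlimb ischemia and 37.0 TPM in sham, and to the cluster assembly gene Iba57 with 5.47 TPM after hindlimb ischemia and 7.22 TPM in sham. Of 9 cytosolic assembly genes 8 had a lower mean, among them Narfl (17.9 TPM after hindlimb ischemia and 23.2 TPM in sham) and Ciao1 (21.3 TPM after hindlimb ischemia and 25.8 TPM in sham). Of 9 ferroptosis genes tested 8 had a lower mean, with Gch1 at 4.80 TPM after hindlimb ischemia and 6.03 TPM in sham, Lpcat3 at 37.1 TPM after hindlimb ischemia and 43.2 TPM in sham and Gpx4, the enzyme that repairs oxidised lipids, at 199 TPM after hindlimb ischemia and 219 TPM in sham. None of these lists held a gene at an unadjusted p under 0.05. Among all genes tested, 69.1% had a negative log2 fold change.

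**Figure D5:**
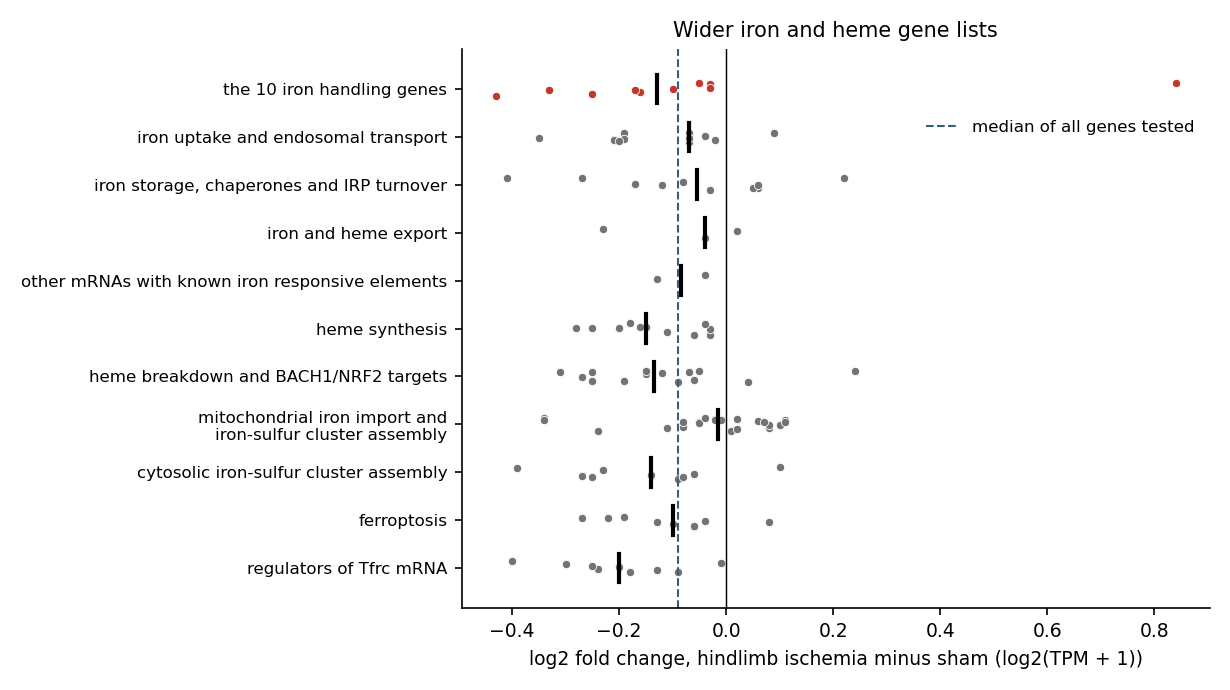
Log2 fold change, hindlimb ischemia minus sham, of every tested gene in the 10 wider lists (grey) and of the 10 iron handling genes (red), with the median of each list as a black bar. Tfrc lies alone at 0.84, and the other lists spread around the dashed line at -0.09, the median of all genes.

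Genes that act on Tfrc transcription or mRNA decay included Myc, Hif1a and the Stat5 genes, and the RNA-binding proteins Zc3h12a, Rc3h1 and Zfp36. All 9 tested had a lower mean after hindlimb ischemia, and the list's median was -0.20, or -0.08 after the GC content and length correction. For all genes tested, without that correction, the share with a negative log2 fold change was 69.1% and the median -0.09. Zfp36, which promotes decay of mRNAs with AU-rich elements, had 46.8 ± 4.75 TPM after hindlimb ischemia and 62.5 ± 11.4 TPM in sham (SD, n = 3 each; limma unadjusted p = 0.0313, adjusted p = 0.874). Myc, an activator of Tfrc transcription, had 193 ± 32.1 TPM after hindlimb ischemia and 227 ± 15.04 TPM in sham. Zc3h12a, a nuclease known to cleave Tfrc mRNA, had 3.34 TPM after hindlimb ischemia and 3.64 TPM in sham. The Zfp36 call was lost after the GC content and length correction, and without hindlimb ischemia replicate 2 or 3 or sham replicate 1 or 2. No other gene of this list had an unadjusted p under 0.05.

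Other mRNAs with iron responsive elements were few in these cells. Of 8 such genes 2 were tested, and neither had an unadjusted p under 0.05. Cdc14a, a phosphatase gene, had 6.55 ± 1.28 TPM after hindlimb ischemia and 6.86 ± 1.89 TPM in sham (SD, n = 3 each). Another 6, among them Alas2 and Epas1, were below the filter. Over all tested genes with a full hairpin match, the median log2 fold change was -0.14 for 94 genes with the match in a 3′ UTR and -0.09 for 24 with it in a 5′ UTR. The median of all genes tested was -0.09. The values of the 93 genes other than Tfrc with a 3′ UTR match ran from -0.58 to 0.23. Tfrc was chosen for its difference, so its place above them is a description.

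The genes whose level ran most like that of Tfrc over the 6 libraries, among 8306 annotated genes with a mean of at least 5 TPM, were Tefm (Pearson r = 0.983), Acp1 (0.969), Gda (0.957), D3Ertd751e (0.953) and Hnmt (0.944). Those running most opposite were Ptprcap (-0.987), Prdx2 (-0.983) and Gfi1b (-0.971). These r are a description over libraries of 2 groups that differ in Tfrc, so they pick out genes that separate the groups. Gda had 35.9, 35.3 and 32.4 TPM after hindlimb ischemia and 29.7, 23.0 and 23.6 TPM in sham, and like Tfrc it was closest to the ischemia values in sham 1. Gfi1b had 5.07, 4.11 and 3.57 TPM after hindlimb ischemia and 8.05, 10.4 and 10.3 TPM in sham.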

How the data were processed

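Per the labels' protocols, cells went directly into extraction buffer, the PicoPure kit was used for RNA, and library preparation was Illumina's standard one. The submitters' processing notes name the mm10 build. Which aligner, counting tool, test and strand setting were used is not given in the sources used here. Per the file headers, the deposited table holds TPM per library. Its log2 fold change and adjusted p-value columns are the authors' own, also per the file headers. A deposited short list of 34 genes (adjusted p under 0.2) gives further columns, of which 6 per-sample columns were not used. The direction of the authors' log2 fold change is not named. It correlated with hindlimb ischemia minus sham at a Spearman rho of -0.96 across genes, so it is sham over hindlimb ischemia.

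From these, log2(TPM + 1) of the genes left by a filter of 1 TPM in 3 or more libraries was fitted with limma-trend 3.58.1 in R 4.3.3 (robust, no covariate, 4 residual degrees of freedom) and adjusted by the Benjamini-Hochberg method over 13787 genes. The fit was run on simulated counts with a common dispersion and independent libraries. They held no trend with GC content or transcript length, so that run does not cover such trends. Exact permutation of 3 against 3 libraries cannot go below p = 0.1. TPM multiplied by exon-union length (GENCODE M21) gave whole reads, within 0.001, for 59.7% of genes. For the others the smallest length giving whole reads was used, so their reads are a lower bound.

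The members and lists were chosen with earlier results of these data known. Of each wider list the 2 tested genes with the smallest p are named; others are named for their role, chosen after their values were seen. Of the genes this rule names, 1 is not reported here. For likeness to Tfrc, the 5 highest and 3 lowest Pearson correlations were taken, over the libraries and after subtracting the group mean. A gene that the table lists under an older symbol was matched through RefSeq synonyms. Alternatives were other pseudocounts and filters, quantile normalization, size factors, no trend, the replicate number as a block, leaving out each library, limma-voom on recovered reads and removal of each library's loess trend (span 0.3) with GC content and transcript length. A fit of protein-coding genes only was chosen after seeing the data.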

Additional observations from a re-analysis of the deposited data

How the results depend on the processing

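The Tfrc difference of 0.84 kept its direction in all 19 alternatives, within 0.79 to 0.95 for those with all libraries and 0.72 to 1.00 with 1 library left out. As Tfrc was chosen for this difference, the range is a description.

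The number of genes past an adjusted p of 0.05, 0 in the limma-trend fit, was 1 without the trend, 6 with protein-coding genes corrected for GC content and length, and 0 to 33 with 1 library left out, with 33 without hindlimb ischemia replicate 1. At an unadjusted p under 0.05 the count of 537 was 915 with no filter, 340 at a mean of at least 5 TPM, 956 with the GC content and length correction, 881 with it among protein-coding genes, and 236 to 2669 with 1 library left out, lowest without hindlimb ischemia replicate 2 and highest without hindlimb ischemia replicate 1. Of the wider iron and heme genes, 1 at an unadjusted p under 0.05 became 3 with size factors, quantile normalization or limma-voom on recovered reads, 5 with the GC content and length correction over all or protein-coding genes, and 0 to 16 with 1 library left out; 0 passed the adjusted threshold in any alternative. The cause of these changes was not tested.

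Same-numbered libraries deviated together with r of 0.389, 0.182 and 0.0757 for numbers 1, 2 and 3. Hindlimb ischemia replicates 1 and 2 correlated best with the sham library of the same number. Hindlimb ischemia replicate 3 correlated best with sham replicate 2 (0.383). These r do not settle whether the numbers pair the libraries, and the main fit took no pairing. With the replicate block the counts were 69 genes past the adjusted threshold, 1895 at an unadjusted p under 0.05 and 11 of the wider genes. With the block and the GC content and length correction among protein-coding genes they were 9, 1267 and 9.

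Size factors turned the sign of Fth1, Ftl1, Slc40a1 and Steap3, and the GC content and length correction that of Fth1, Slc40a1, Steap3 and Aco1. Leaving out sham replicate 1 turned Ireb2. Hmox1 rests on the fewest recovered reads of the 10 genes, 107 to 213 per library as a lower bound.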

Other observations

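After each gene's group mean was subtracted, which leaves the spread between libraries of 1 group, the genes running most like Tfrc over the 6 libraries were Ube2q2 (Pearson r = 0.991), Pcgf6 (0.99), Snord73a (0.985), Zfp709 (0.985) and Rnf170 (0.983). Those running most opposite were Brk1 (-0.984), Polr2j (-0.977) and Dynlt1f (-0.973). Ube2q2 had 42.8, 47.5 and 47.1 TPM after hindlimb ischemia and 54.6, 40.5 and 43.1 TPM in sham, with overlapping groups. These genes thus follow the low Tfrc of hindlimb ischemia 1 and the high Tfrc of sham 1, and the values are a description of 6 libraries among 8306 genes.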
